A study of Mus musculus with 18 samples.

Results

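Chemokines are small secreted proteins that direct the movement of leukocytes, and their receptors are G protein-coupled receptors on the cells that respond. The families are named after the spacing of conserved cysteines in the ligand (CC, CXC and CX3C), while the atypical receptors, such as Ackr3, bind chemokines without the usual G protein signal and clear or carry them. In the heart this system is known for recruiting monocytes through the CCL2 and CCR2 pair, for the CX3CR1 receptor of monocytes and macrophages, and for CXCL12, a ligand made by stromal and vascular cells that holds CXCR4-bearing cells in tissue.

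The genes described here were the protein-coding genes of the left ventricular count table whose symbol begins with Ccl, Cxcl, Ccr, Cxcr, Cx3cl, Cx3cr, Xcr or Ackr followed by a digit, and whose raw count averaged at least 10 over the 18 libraries. Of 55450 genes in the table, 66 annotated entries matched the symbols, copies on unplaced scaffolds included, 39 fell below that count and 26 of those above it are described. These were 18 ligands (12 CC, 5 CXC and 1 CX3C) and 8 receptors, of which 3 were atypical. The member closest to the limit was Ccl28, with a mean count of 11.7, and the gene just outside it was Xcr1, with 9.94. Of the 39 entries below the limit, 12 had no count in any library, and these included Ccl19 and the Ccl21 genes, which have near-identical annotated copies and are uncertain in a table of uniquely aligned read pairs. All 26 members passed the filter on low counts and were among the 16270 genes tested. They held between 0.0473% and 0.0739% of a library's counts.

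The samples were left ventricles of male FVB/N mice, either wild type (WT) or their littermates with cardiac-specific overexpression of Gαq, the G protein subunit encoded by Gnaq that couples neurohormone receptors to hypertrophy and heart failure. From 4 weeks of age the mice received control diet (CD) or chow with 0.5 mg/g of ertugliflozin (ERTU), an inhibitor of the kidney glucose transporter SGLT2, for 16 weeks, so that all hearts were taken at 20 weeks. On CD there were 4 WT and 5 Gαq libraries and on ERTU 5 WT and 4 Gαq libraries, numbered across the series, and the methods of the study give 4 to 5 hearts per group. The labels describe the transgene as cardiac-specific and do not name its promoter. RNA came from whole ventricle, so more cells of one type cannot be told apart from more RNA per cell. No batch was labelled, and p-values measure the spread between these libraries alone.

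Total counts per library ran from 15383566 to 20908363. Gnaq itself was at 45.6 to 209 counts per 1000000 (CPM) in WT CD and 45.5 to 230 CPM in WT ERTU, against 1641 to 11670 CPM in Gαq CD and 2236 to 5207 CPM in Gαq ERTU. Cardiomyocyte markers summed to between 67140 and 103800 CPM in every library. Atrial markers ranged far more widely, from 5.56 CPM to 906.5 CPM, and the library with the highest atrial sum was number 5 in WT CD, 14 in WT ERTU, 8 in Gαq CD and 20 in Gαq ERTU. Each count below was therefore also taken without those 4 libraries. Library 11 had the lowest CPM of WT ERTU for 15 of the 26 members, library 15 the highest of that group for 11, and library 8 the highest of Gαq CD for 14.

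The 26 genes sit in few places in the genome (GENCODE M21 on GRCm38). Chromosome 11 held 9 of them, 8 of these CC ligands, including Ccl2, Ccl7, Ccl11, Ccl12 and Ccl8 side by side between 82035571 and 82116799. Chromosome 9 held 6, all receptors, with Cxcr6, Ccr1 and Ccr2 between 123806475 and 124113557. Proximal promoter sequence was found for 20 of the 26 in the RefSeq table (GRCm38.p6). Those of Cxcl14 and Cxcl12 are shown because these were the members that fell in Gαq hearts. Each line gives the 250 bases before the transcription start, 5′ to 3′ on the strand of the gene. In Cxcl14 (chr13:56296552-56296801, minus strand) the capitals mark an interferon response element, a spaced pair of GAAA repeats, at bases -172 to -163. In Cxcl12 (chr6:117168285-117168534, plus strand) they mark 5 GC boxes, letters GGGCGG on either strand, of which those starting at -16 and -11 share 1 base.
Cxcl14: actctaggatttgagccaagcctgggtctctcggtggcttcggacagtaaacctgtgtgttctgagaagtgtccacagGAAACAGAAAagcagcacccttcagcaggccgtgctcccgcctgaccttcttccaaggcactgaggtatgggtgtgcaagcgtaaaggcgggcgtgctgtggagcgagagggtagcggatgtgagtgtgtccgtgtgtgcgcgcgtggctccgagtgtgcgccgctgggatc
Cxcl12: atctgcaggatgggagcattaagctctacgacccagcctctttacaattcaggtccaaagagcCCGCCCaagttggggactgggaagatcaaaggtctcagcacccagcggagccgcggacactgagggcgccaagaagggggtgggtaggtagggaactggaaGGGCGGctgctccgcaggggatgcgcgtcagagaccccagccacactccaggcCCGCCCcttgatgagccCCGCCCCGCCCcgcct
Among all 32851 RefSeq promoters, searched on both strands over the same 250 bases each, 2.98% held the interferon element and 32.7% a GC box. The shares over all promoters count every listed start of a gene, while each member entered once, by its most upstream start. Of the 20 member promoters, 1 held the interferon element (Cxcl14) and 5 a GC box (Cxcl12, Ackr3, Ccl28, Cx3cl1 and Cxcr4). The TATA box letters TATAAA occurred in 8 members and in 12.4% of all promoters, the kappaB consensus in 4 members (Ackr2, Ccl9, Ccr1 and Cxcl1) and 7.25% of all, and the PU.1 letters GAGGAAGT in 0 members and 2.44% of all. A match describes letters in the window and is not a site of binding.

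Per kilobase of exon, 2 members of a shared ligand system stood far above the rest. Ackr3, the atypical receptor that takes up CXCL12, averaged 44.8 CPM per kb over the 18 libraries, and Cxcl12 38.4 CPM per kb. Their ranges overlapped (35.4 to 63.9 and 27.8 to 47.9 CPM per kb), so the order between them was within the spread of the libraries, while the next members by mean, Ccl6 and Cxcl14, reached at most 16.1 and 20.9 CPM per kb. Ccl6, a CC ligand of macrophages, averaged 8.69 CPM per kb, followed by the CXC ligand Cxcl14 at 8.54, the eosinophil attractant Ccl11 at 6.51 and the membrane-bound CXC ligand Cxcl16 at 5.37. Cxcr4, the signalling receptor of CXCL12, was the highest conventional receptor at 5.24 CPM per kb. Middle levels, between 1.01 and 3.31 CPM per kb, belonged to Cx3cl1, Ccl9, Ccl8, Ccl24, Cx3cr1, Ccl27a, Ccl12, Ccl2, Ackr4, Ackr2, Ccl7 and Ccr1. The lowest were Ccl5, Cxcl1, Ccr2, Ccl25, Cxcr6, Cxcl9 and, at 0.133 CPM per kb, Ccl28. Neighbours below Cxcl12 in this order overlapped widely from library to library, as the plot of levels shows.

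**Figure D1:**
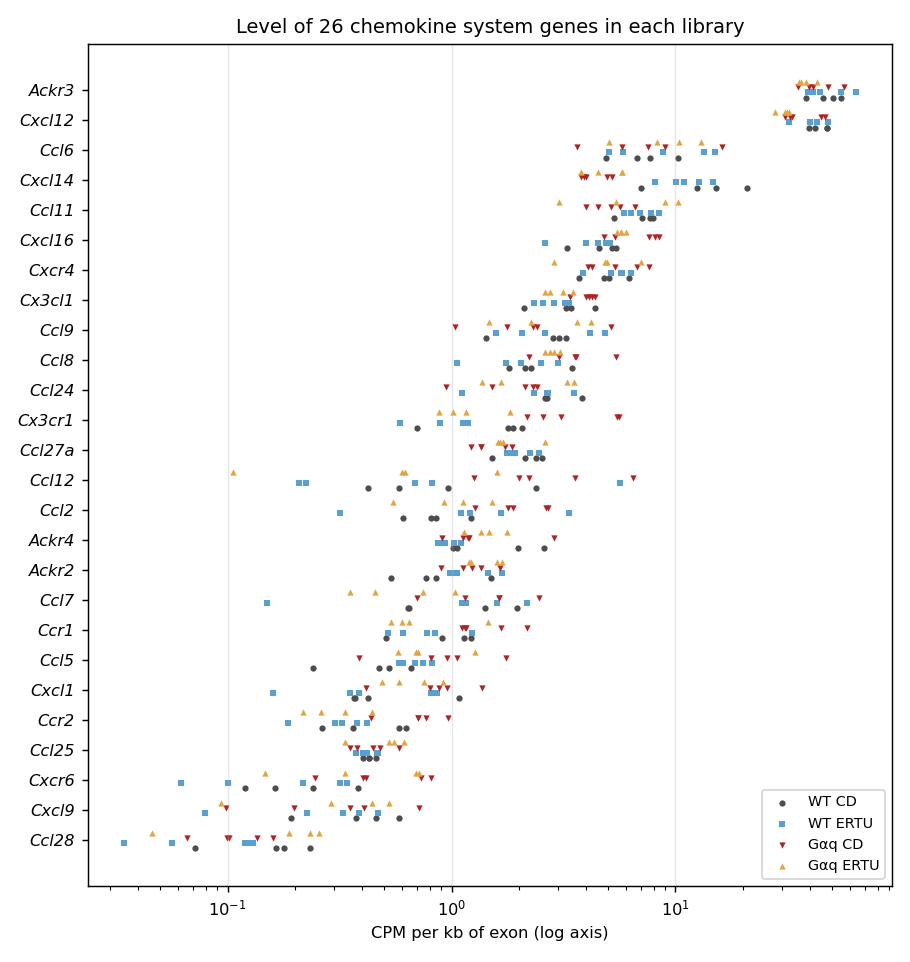
Level of each of the 26 genes in CPM per kilobase of exon on a log axis, 1 point per library, with marker and colour giving the group (4 WT and 5 Gαq libraries on CD, 5 WT and 4 Gαq on ERTU). Ackr3 and Cxcl12 lie between 27.8 and 63.9 CPM per kb in every library, apart from all other members.

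The first question was how Gαq overexpression changed these genes, with diet in the model. In edgeR's quasi-likelihood test 5 of 26 members passed an adjusted p of 0.05 (Benjamini-Hochberg over all 16270 genes): Cxcl16, Cxcr6 and Cx3cr1 rose, and Cxcl14 and Cxcl12 fell. That is 19.2% of the members beside 19.6% of all genes tested, with 9.72% of all genes higher and 9.92% lower, so the share of members called was close to the background. At an unadjusted p under 0.05 it was 8 of 26, or 30.8%, beside 31.9%. The median log2 fold change was 0.183 over the members and 0.004 over all genes. A positive sign was held by 7 of the 8 receptors and 10 of the 18 ligands, beside 8238 of all 16270 genes. Without the 4 libraries highest in atrial markers 3 members were called, namely Cx3cr1, Cxcl14 and Ackr3, beside 17.8% of all genes.

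Cxcl14 (ENSMUSG00000021508, chr13:56288643-56296551), a CXC ligand made by stromal and epithelial cells, had the smallest adjusted p of the members. WT CD libraries had 38.2, 12.8, 27.8 and 22.9 CPM, in the order of the library numbers, and WT ERTU libraries 14.8, 19.9, 23.3, 18.3 and 26.7 CPM. In Gαq CD it was 6.95, 7.16, 9.47, 9.06 and 7.31 CPM and in Gαq ERTU 8.23, 10.5, 10.5 and 6.89 CPM. Every Gαq library lay below every WT library. Genotypes that did not overlap, in either direction, were seen in 1 of the 26 members and in 3.56% of all genes. The fall was 2.69-fold (log2 -1.43 ± 0.17, SE, edgeR adjusted p = 4.12e-06), and it was called on each diet alone, with log2 -1.67 ± 0.23 (SE, adjusted p = 0.000123) on CD and -1.19 ± 0.24 (SE, adjusted p = 0.00325) on ERTU. Leaving out any one library left the log2 value for genotype between -1.52 and -1.29. Fibroblast markers ran the other way, 5 of 7 being called higher in Gαq, Lum the most at log2 0.97, with overlapping sums of 1391 to 2668 CPM in WT and 2482 to 3776 CPM in Gαq. Their part in the Cxcl14 value was not tested.

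Cxcl12 (ENSMUSG00000061353, chr6:117168535-117181367) had the highest count of the members, at a mean of 5671 per library. It stood at 342, 324, 386 and 389 CPM in WT CD and 262, 351, 351, 325 and 392 CPM in WT ERTU. Gαq CD libraries had 252, 382, 272, 366 and 265 CPM, and Gαq ERTU libraries 227, 262, 252 and 258 CPM. Group ranges overlapped on CD, where libraries 7 and 9 were as high as WT, but on ERTU every Gαq library was below every WT library, narrowly, at 261.5 CPM for the highest and 261.8 CPM for the lowest. Cxcl12 fell 1.26-fold by genotype (log2 -0.33 ± 0.09, SE, adjusted p = 0.016), a call lost without the 4 libraries highest in atrial markers (-0.31, adjusted p = 0.0815). Stromal and vascular cells express Cxcl12, and their markers did not share a direction. Called lower were 2 of 6 endothelial markers (Cdh5 and Tie1) and 2 of 6 mural markers (Abcc9 and Rgs5). Fibroblast markers went the other way, with 5 of 7 called higher. Endothelial sums overlapped, at 1143 to 1500 CPM in WT and 1025 to 1237 CPM in Gαq. Mural sums were 1703 to 2013 CPM in WT and 1250 to 1854 CPM in Gαq. The part of these cell types in the Cxcl12 value was not tested.

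Its receptors did not pass the test. Cxcr4 had 6.69, 8.66, 11.2 and 9.10 CPM in WT CD and 6.96, 10.3, 10.5, 9.33 and 11.4 CPM in WT ERTU, against 7.68, 12.1, 9.70, 13.7 and 7.36 CPM in Gαq CD and 5.18, 8.93, 8.76 and 12.7 CPM in Gαq ERTU. All 4 groups overlapped, and the genotype value of log2 0.03 ± 0.16 (SE) took either sign as single libraries were left out. For Ackr3 the WT CD libraries read 168, 184, 153 and 128 CPM and the WT ERTU libraries 214, 148, 138, 131 and 184 CPM. Gαq CD gave 119, 160.1, 189.8, 138 and 132 CPM and Gαq ERTU 129, 121, 119 and 144 CPM. Its genotype value was log2 -0.22 ± 0.11 (SE, adjusted p = 0.165), and it was called, at -0.39 with adjusted p = 0.0113, only in the fit without the 4 libraries highest in atrial markers.

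Cxcl16 and Cxcr6 are the ligand and receptor of one pair, the receptor being carried by T and NK cells, and both rose in Gαq. Cxcl16 (ENSMUSG00000018920, chr11:70453983-70459984) was at 9.92, 15.7, 16.3 and 13.8 CPM in WT CD and 7.92, 12.1, 15.5, 13.6 and 14.8 CPM in WT ERTU. In Gαq CD it was at 16.2, 22.9, 25.5, 14.4 and 24.4 CPM and in Gαq ERTU at 17.2, 17.2, 16.6 and 18.2 CPM. Libraries 6 and 9 of Gαq CD fell inside the WT range, while on ERTU the groups did not overlap. The rise was 1.42-fold (log2 0.50 ± 0.13, SE, adjusted p = 0.00936), and the adjusted p became 0.0589 without the 4 libraries highest in atrial markers. This gene shares 552 exon bases (18.3%) with Zmynd15 on the opposite strand, whose mean count was 67.4 against 300.4 for Cxcl16, and since it is not stated whether the library kit kept strand the value carries that uncertainty.

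Cxcr6 (ENSMUSG00000048521, chr9:123806475-123811760) rested on few reads, 2 to 34 per library. WT CD had 0.231, 0.741, 0.463 and 0.314 CPM and WT ERTU 0.120, 0.613, 0.658, 0.419 and 0.193 CPM, while Gαq CD had 0.799, 0.774, 1.56, 0.477 and 1.41 CPM and Gαq ERTU 1.34, 1.39, 0.282 and 0.643 CPM. The ranges overlapped on both diets, libraries 9, 18 and 20 of Gαq lying within the WT range. Its rise was 2.25-fold (log2 1.17 ± 0.35, SE, adjusted p = 0.0223), with adjusted p = 0.142 by limma voom and 0.0541 without library 17. Nor was Cxcr6 called in the fit without the 4 libraries highest in atrial markers. T cell markers were higher as well, with 2 of the 4 tested called (Cd4 and Lck) and sums of 2.38 to 4.46 CPM in WT and 3.88 to 7.36 CPM in Gαq. The NK markers Ncr1, Klrb1c, Nkg7, Gzma and Klre1 summed to 0.658 to 1.54 CPM in WT and 1.15 to 2.81 CPM in Gαq, and the part of either cell type in Cxcr6 was not tested.

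**Figure D2:**
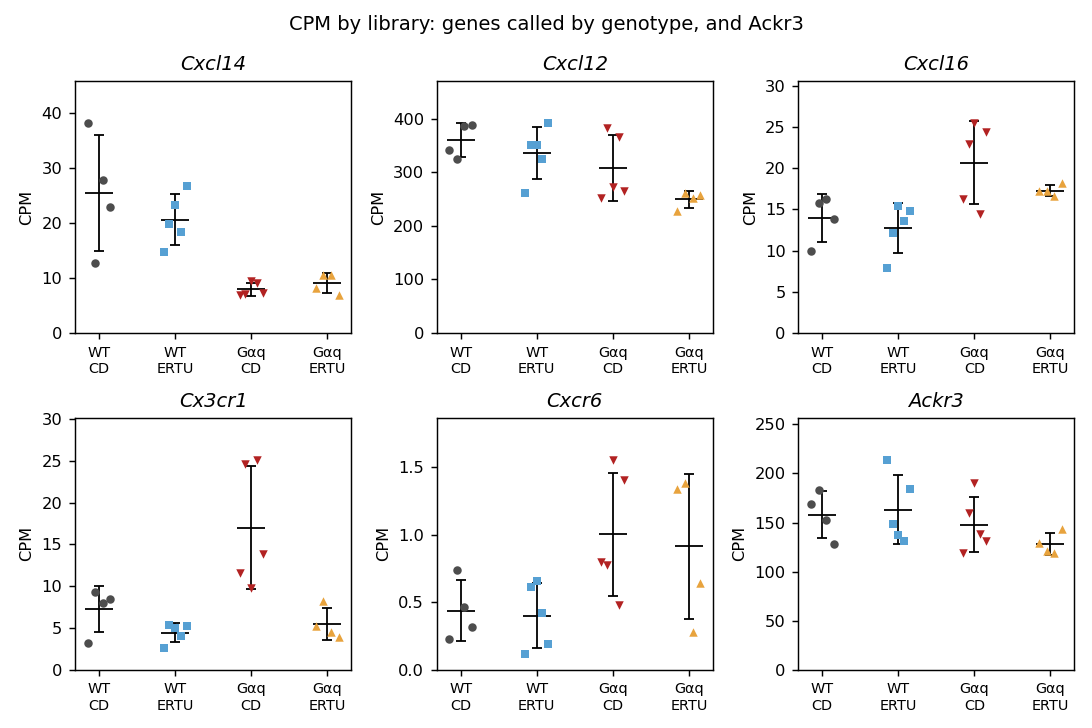
CPM per library of the 5 genes called by genotype and of Ackr3, by genotype and diet (4 WT and 5 Gαq libraries on CD, 5 WT and 4 Gαq on ERTU), with the mean as a line and 1 SD as bars, each axis starting at 0. All 9 Gαq libraries of Cxcl14 lie between 6.89 and 10.5 CPM, below the lowest WT library at 12.8 CPM.

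Cx3cr1 (ENSMUSG00000052336, chr9:119901616-120069879), the fractalkine receptor of monocytes and resident macrophages, rose in Gαq hearts on control diet. WT CD libraries had 3.17, 9.29, 8.05 and 8.47 CPM and Gαq CD libraries 11.6, 24.7, 9.75, 25.2 and 13.9 CPM. On ERTU the values were 2.64, 5.35, 5.05, 3.99 and 5.22 CPM in WT and 5.24, 8.26, 4.58 and 3.95 CPM in Gαq. Every Gαq CD library was above every WT CD library, with libraries 7 and 9 well above the other 3, whereas the ERTU groups overlapped. On CD the rise was 2.35-fold (log2 1.23 ± 0.32, SE, adjusted p = 0.0215), and on ERTU the value was 0.30 ± 0.34 (SE, adjusted p = 0.657). With diet in the model it was log2 0.80 ± 0.25 (SE, adjusted p = 0.0296). The call on CD was lost without library 1, 7 or 9 (adjusted p 0.0612 to 0.0809) and in a fit of those 2 groups alone (0.0502), and the genotype call was lost without library 1, 4, 7, 9 or 17 (0.0524 to 0.0652). Of 10 macrophage markers, 1 was called by genotype, Fcgr1 at log2 0.71, with overlapping sums of 365 to 578 CPM in WT CD and 423 to 701 CPM in Gαq CD. Of 5 monocyte markers 2 could be tested, 1 called higher by genotype at log2 1.74 and the other at -0.09. Monocyte sums overlapped, at 47.3 to 99.8 CPM in WT CD and 59.5 to 105 CPM in Gαq CD. The part of either cell type in Cx3cr1 was not tested. Its ligand Cx3cl1, a membrane-bound protein of endothelium, was at 8.25 to 17.3 CPM in WT CD and 13.3 to 17.2 CPM in Gαq CD, with a genotype value of log2 0.18 ± 0.12 (SE, adjusted p = 0.304).

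On each diet alone fewer members were called. On CD 2 of 26 passed, beside 8.1% of all genes: Cx3cr1, among 4% of all genes that rose, and Cxcl14, among 4.1% that fell. DESeq2 also called Cxcl16 on CD, with 9.88% of genes called. A fit of those groups alone called Cxcl14 and Ccl2 but not Cx3cr1, with 6.42%. At an unadjusted p under 0.05 edgeR gave 8 members, beside 21%. Groups did not overlap in 4 members (Cxcl14, Cx3cr1, Ccl2 and Ccl24), beside 9.29% of all genes. On ERTU 1 passed (Cxcl14), beside 8.17%, of which 3.93% rose and 4.24% fell. There DESeq2 also called Cxcl12, with 9.95% of genes called, voom also called Cxcl12 and Ccl28, with 16.9%, and a fit of those groups alone also called Cxcl12 and Ackr4, with 7.98%. Without the 4 libraries highest in atrial markers Ackr3 was called beside Cxcl14, with 8.75%. At an unadjusted p under 0.05 edgeR gave 6, beside 21.7%, and 4 (Cxcl14, Cxcl12, Cxcl16 and Ackr4) did not overlap, beside 10.9%. The remaining ligands had genotype values between log2 -0.33 for Ccl24, an eotaxin, and 0.63 for Ccl5, a T cell attractant, none past the threshold. Nearest to it were the monocyte attractant Ccl8, at log2 0.51 ± 0.20 (SE, adjusted p = 0.0858), Ccl5 (adjusted p = 0.121) and the skin-type ligand Ccl27a, at log2 -0.31 ± 0.14 (SE, adjusted p = 0.128). By limma voom, which called 24% of all genes, Ccl8 and Ccl27a were called and Cxcr6 was not. The neutrophil attractant Cxcl1 stood at log2 0.54 ± 0.30 (SE), the interferon-induced Cxcl9 at -0.01 ± 0.36, Ccl11 at -0.23 ± 0.18, Ccl25 at 0.16 ± 0.13 and Ccl9 at -0.06 ± 0.28. Among receptors Ccr1, shared by several CC ligands, had 0.33 ± 0.24 and the scavenger Ackr2, which degrades inflammatory CC ligands, 0.32 ± 0.18.

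Ccl6 had the highest mean level per kb of the CC ligands. It ran at 13.8, 8.83, 12.1 and 18.3 CPM in WT CD and 24.1, 9.03, 10.4, 26.9 and 15.8 CPM in WT ERTU. Gαq CD libraries had 16.2, 10.3, 28.8, 6.50 and 13.5 CPM and Gαq ERTU libraries 18.6, 9.09, 14.8 and 23.4 CPM. All groups spanned much the same range, and the genotype value of log2 0.06 ± 0.26 (SE) changed sign without library 2, 8, 12 or 20.

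**Figure D3:**
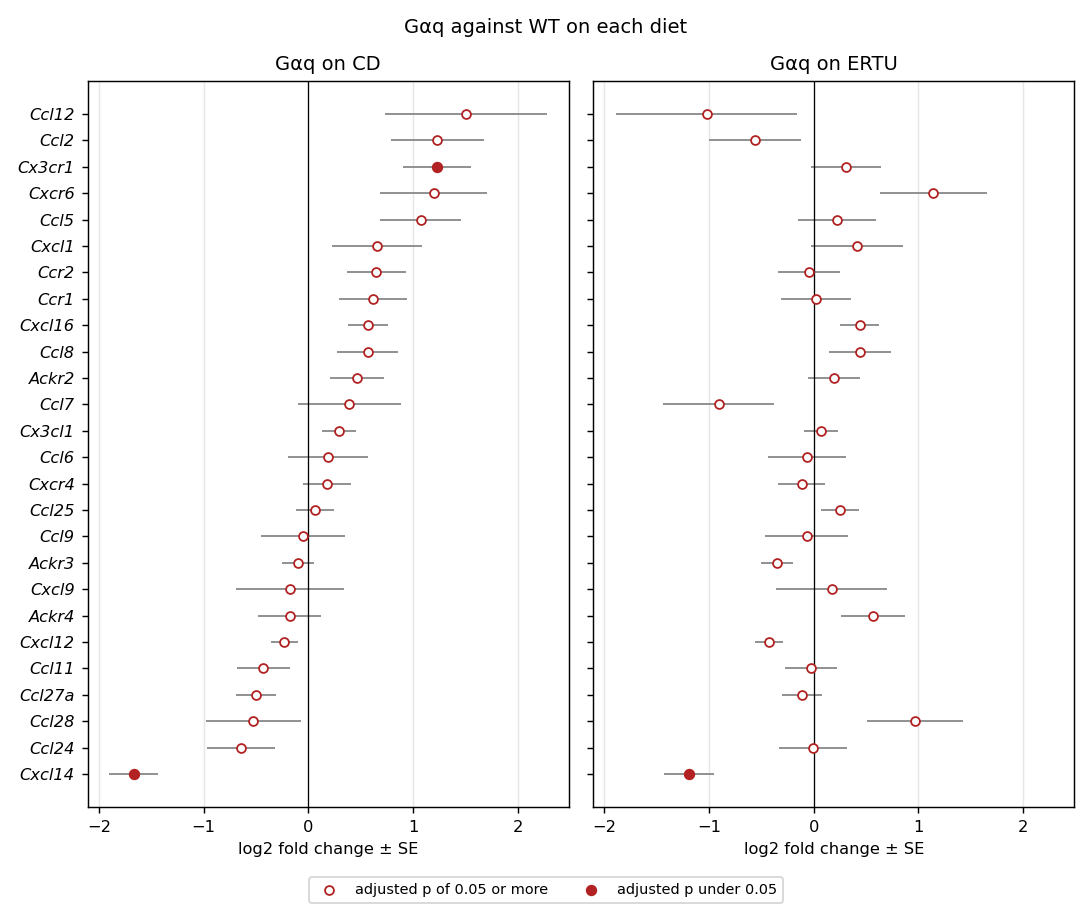
Log2 fold change of Gαq against WT with its SE from edgeR for the 26 genes, on control diet (left, 5 against 4 libraries) and on ERTU (right, 4 against 5), ordered by the value on control diet. Filled points have an adjusted p under 0.05: Cxcl14 in both panels, at -1.67 and -1.19, and Cx3cr1 on control diet, at 1.23.

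The next question was whether ERTU changed these genes. With genotype in the model, no member passed in edgeR or limma voom, beside 0% of all genes in edgeR. DESeq2's Wald test called 1 member, Cx3cr1, and 2 genes in all, or 0.0065% of the 30749 to which it gave an adjusted p. At an unadjusted p under 0.05 edgeR gave 5 of 26 members (Cx3cr1, Ccr2, Ccr1, Cx3cl1 and Cxcl12) beside 7.7% of all genes. The median log2 value was -0.143 over the members, -0.268 over the 8 receptors and -0.002 over all genes. A negative sign was held by 7 of the 8 receptors, Ackr2 being the exception at 0.32, beside 8220 of all 16270 genes. Within Gαq, 0 members passed in edgeR or voom, beside 0.00615% of all genes in edgeR, and DESeq2 called Cx3cr1 as 1 of 4 genes in all, or 0.013%. In this comparison 8 of 26 had an unadjusted p under 0.05 beside 7.62% of all genes, namely the receptors Cx3cr1, Ccr2 and Ccr1 and the ligands Cx3cl1, Cxcl12, Ccl2, Ccl7 and Ccl12. Within WT, 0 passed in any of the 3 tools and 2 (Ackr4 and Cx3cr1) had an unadjusted p under 0.05, beside 0% and 2.24% of all genes. These comparisons share libraries with the genotype comparisons, so that a high Gαq CD group enters both.

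Cx3cr1 had the smallest p of the members by diet and for ERTU within Gαq. The Gαq ERTU libraries, at 3.95 to 8.26 CPM, all lay below the Gαq CD libraries, at 9.75 to 25.2 CPM, a separation seen in 1 member, Cx3cr1, and in 1.6% of all genes. In WT the ranges were 2.64 to 5.35 CPM on ERTU and 3.17 to 9.29 CPM on CD and overlapped, library 1 being the low one on CD. The ERTU value was log2 -1.63 ± 0.33 in Gαq (SE, adjusted p = 0.371 in edgeR and 0.00648 in DESeq2) and -0.70 ± 0.33 in WT (SE, adjusted p = 1.000). Over both genotypes it was -1.18 ± 0.25 (SE, adjusted p = 0.606 in edgeR and 0.0246 in DESeq2). The difference between the genotypes was -0.93 ± 0.46 (SE, adjusted p = 1.000). Macrophage marker sums in Gαq were 423 to 701 CPM on CD and 391 to 597 CPM on ERTU. Of these markers 0 of 10 were called and 7 of 10 were negative in sign, beside 8307 of all 16270 genes. Their part in the Cx3cr1 values was not tested.

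Ccr2, the receptor through which CCL2 recruits monocytes, had the next smallest p in both comparisons. Ccr2 was at 1.79, 4.22, 3.94 and 2.45 CPM in WT CD and 1.26, 2.56, 2.19, 2.05 and 2.83 CPM in WT ERTU. In Gαq CD it was at 2.95, 6.53, 5.22, 4.77 and 4.78 CPM and in Gαq ERTU at 2.25, 1.77, 2.99 and 1.47 CPM. Only library 6 of Gαq CD reached down into the ERTU range. The value in Gαq was log2 -1.20 ± 0.29 (SE, adjusted p = 0.653), and over both genotypes -0.86 ± 0.21 (SE, adjusted p = 0.606). Ccr1 was at 3.14 to 6.13 CPM in Gαq CD and 1.52 to 4.14 CPM in Gαq ERTU (log2 -0.85 ± 0.33, SE, adjusted p = 0.653). Of the 5 monocyte markers, 2 could be tested and neither was called, with sums of 59.5 to 105 CPM in Gαq CD and 56.7 to 86.0 CPM in Gαq ERTU.

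**Figure D4:**
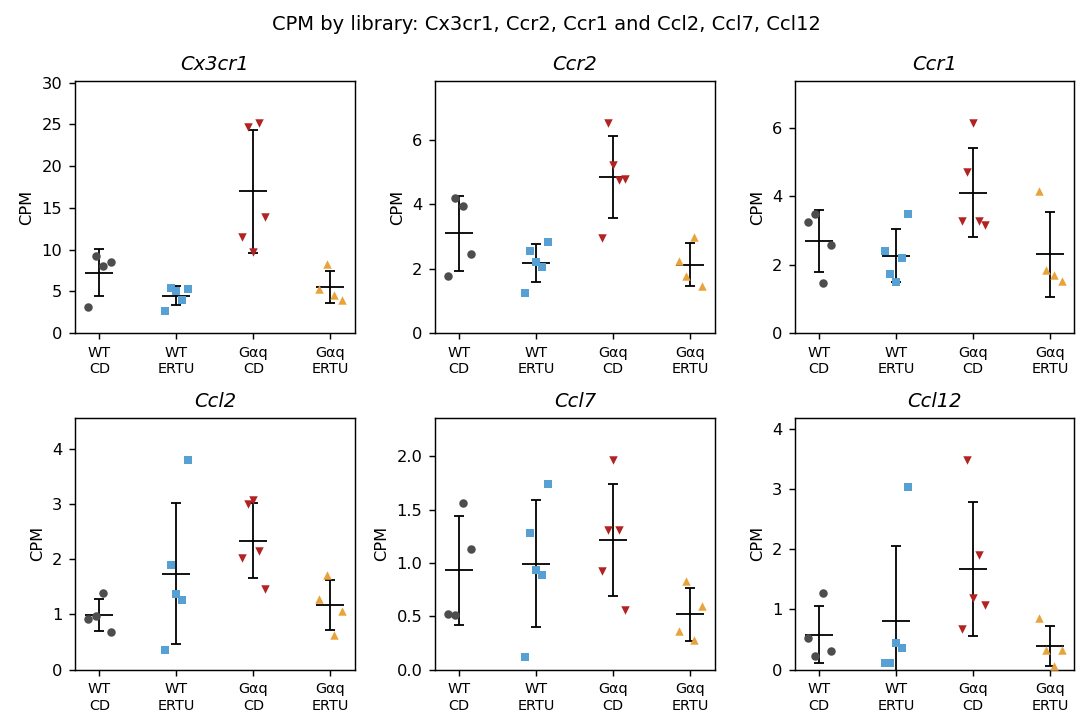
CPM per library of Cx3cr1, Ccr2 and Ccr1 and of the neighbouring ligand genes Ccl2, Ccl7 and Ccl12 by genotype and diet (4 WT and 5 Gαq libraries on CD, 5 WT and 4 Gαq on ERTU), with the mean as a line and 1 SD as bars, each axis starting at 0 and so cutting the lower bar of Ccl12 in WT ERTU. Gαq CD has the highest mean in all 6 panels, and its Cx3cr1 libraries lie above those of Gαq ERTU.

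Ccl2, the main monocyte attractant, gave the smallest p of the members for the difference between the ERTU values of the genotypes. It was at 0.923, 0.969, 1.39 and 0.691 CPM in WT CD and 0.360, 1.90, 1.37, 1.26 and 3.80 CPM in WT ERTU. Gαq CD libraries had 2.03, 3.00, 3.07, 2.15 and 1.45 CPM and Gαq ERTU libraries 1.28, 1.72, 0.621 and 1.06 CPM. On CD every Gαq library was above every WT library, at log2 1.23 ± 0.44 (SE, edgeR adjusted p = 0.0998). That rise was called in a fit of those groups alone and in the fits without library 11 or 15. In WT ERTU library 15 was the highest of all 18 and library 11 the lowest. The ERTU value was log2 -1.001 ± 0.433 (SE) in Gαq and 0.79 ± 0.45 (SE) in WT, a difference of -1.79 ± 0.63 (SE, adjusted p = 1.000). Without library 15 the difference was -1.30, and without library 11 it was -2.05. No member passed for this difference in edgeR, DESeq2 or voom, beside 0% of all genes in edgeR, and 3 (Ccl2, Ccl12 and Ccl28) had an unadjusted p under 0.05, beside 1.92%. The neighbours Ccl7 and Ccl12, likewise monocyte attractants and described here after their values were seen, had ERTU values in Gαq of -1.21 ± 0.52 and -2.10 ± 0.82 (SE, both adjusted p = 0.653). Ccl12 rested on 1 to 72 reads per library, 47 of them in library 15, which stood far above the other WT ERTU libraries.

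Ccl28, a mucosal ligand at the bottom of the range, had 0.865, 0.798, 0.347 and 1.13 CPM in WT CD and 0.600, 0.167, 0.274, 0.629 and 0.580 CPM in WT ERTU. In Gαq CD it was at 0.492, 0.484, 0.320, 0.775 and 0.656 CPM and in Gαq ERTU at 0.914, 0.222, 1.13 and 1.24 CPM. Each value stood on 3 to 27 reads and the groups overlapped. Its difference between genotypes in the ERTU value was 1.49 ± 0.64 (log2, SE, adjusted p = 1.000).

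Ackr4, the atypical receptor for CCL19, CCL21 and CCL25, had the smallest p under ERTU in WT. WT CD libraries were at 10.7, 5.47, 5.67 and 13.9 CPM and WT ERTU libraries at 4.68, 4.85, 5.54, 5.93 and 5.03 CPM. Gαq CD gave 4.86, 6.44, 15.5, 6.08 and 6.37 CPM and Gαq ERTU 7.92, 6.10, 9.55 and 7.31 CPM. The WT ranges overlapped, libraries 1 and 5 carrying the high values on CD, and in Gαq CD library 8 stood alone. Libraries 5 and 8 were also those highest in atrial markers in their groups. In WT the ERTU value was log2 -0.78 ± 0.30 (SE, adjusted p = 1.000), moving to -0.48 without library 5. Ackr4 shares 479 exon bases (8.9%) with Acad11 on the opposite strand, and Acad11 averaged 5220 counts against 134 for Ackr4, so its level is uncertain.

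**Figure D5:**
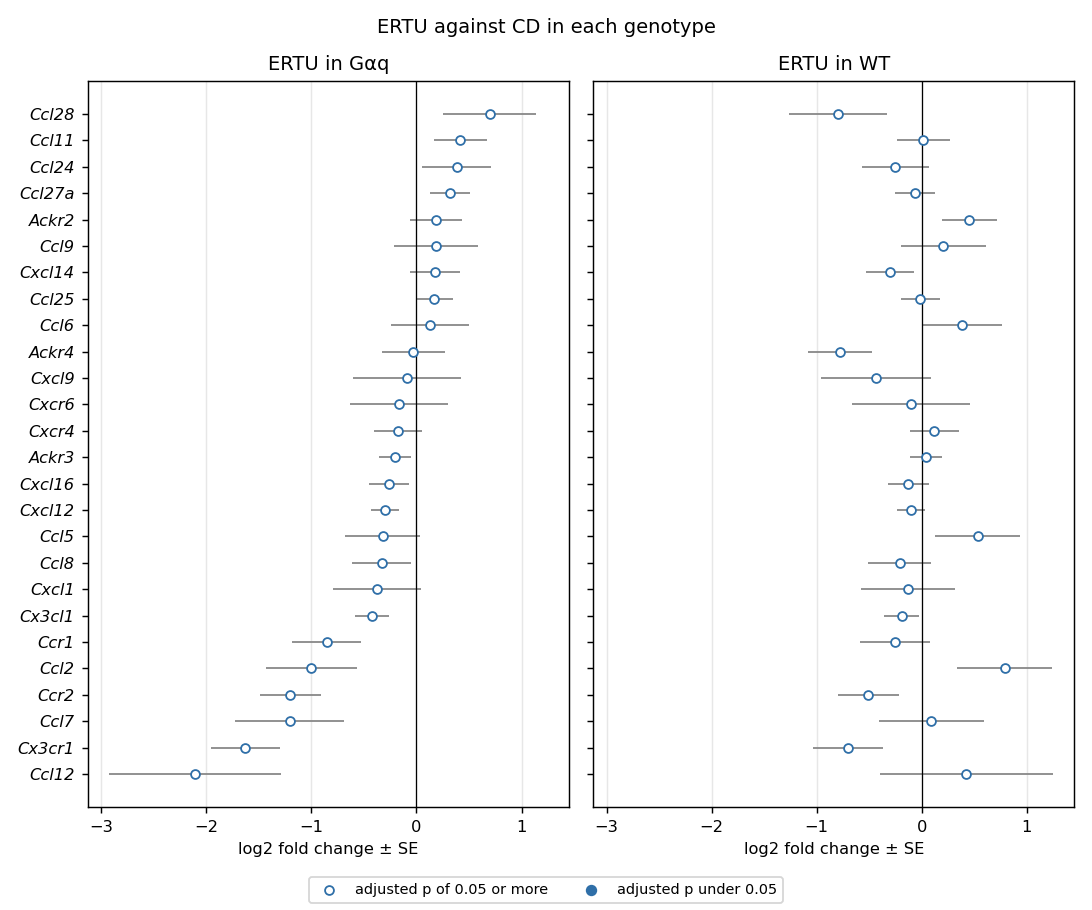
Log2 fold change of ERTU against CD with its SE from edgeR for the 26 genes, in Gαq (left, 4 against 5 libraries) and in WT (right, 5 against 4), ordered by the value in Gαq. All points are open, as no adjusted p was under 0.05, and the lowest values in Gαq are those of Ccl12 at -2.10 and Cx3cr1 at -1.63.

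Members next to each other in the genome, ligands with their receptors, and the receptors Ccr2 and Cx3cr1 were also followed from library to library. Log2 CPM was taken as the deviation from the group mean over the 18 libraries, in 11 pairs, with 100000 permutations within groups and p-values adjusted over the 11. Ccl6 and Ccl9, neighbours on chromosome 11, moved together most closely, with Pearson's r = 0.968 and Spearman's rho = 0.948 (permutation adjusted p = 0.00011 for both, from the smallest p the permutations can give). Without the 2 libraries farthest from the median of Ccl6, r was 0.948. In every pair the 2 libraries left out were those farthest for the first-named gene, so extremes of the other gene could remain. Ccl2 and Ccl7 had r = 0.856 and rho = 0.742 (permutation adjusted p = 0.00114 and 0.0077), with r = 0.696 without 2 libraries. Cxcl12 followed its signalling receptor Cxcr4 with r = 0.779 and rho = 0.82 (permutation adjusted p = 0.00114 and 0.000275, and r = 0.755 without 2 libraries), but not Ackr3, where r was -0.171 and rho -0.127 (permutation adjusted p = 0.637 and 0.741). Cxcl16 and Cxcr6 had r = 0.611 and rho = 0.525 (permutation adjusted p = 0.0172 and 0.0451), which dropped to 0.419 without 2. Ccl2 with Ccl12 gave r = 0.696 and rho = 0.604 (permutation adjusted p = 0.0367 and 0.0451), also resting in part on the 2 farthest libraries (0.479 without them). The remaining 5 pairs did not pass on both measures, including the neighbours Ccr1 and Ccr2 (r = 0.095, rho = 0.059), Ccl2 with Ccr2 (r = 0.462, rho = 0.428) and Cx3cl1 with Cx3cr1 (r = 0.543, rho = 0.389). Among them Ccr2 with Cx3cr1 passed on Pearson's r alone (r = 0.595, rho = 0.416, permutation adjusted p = 0.0374 and 0.161), with r = 0.354 without 2 libraries. Such values share the library and its cell mixture.

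Genes around the chemokine system were taken from 5 lists, read by genotype beside the 19.6% of all genes called. Of 25 tested genes that carry the receptor signal, 6 rose and 1 fell: the leukocyte kinase subunit Pik3cd at log2 0.38 ± 0.08 (SE, adjusted p = 0.00102) and the calcium-dependent kinase Ptk2b at 0.84 ± 0.19 (0.00257) rose, and Rgs2, which switches off Gαq itself, fell at -0.93 ± 0.22 (0.00374). Of 21 inducers of chemokine transcription 3 rose, namely Hif1a, the hypoxia factor, at 0.55 ± 0.09 (adjusted p = 9.39e-05), the pattern receptor Tlr2 at 0.63 ± 0.11 (0.000318) and the interferon-gamma receptor chain Ifngr1 at 0.29 ± 0.08 (0.0156). Of 11 genes for cleavage and surface binding 3 rose and 1 fell, with the proteases Mmp2 at 0.61 ± 0.11 (adjusted p = 0.000344) and Mmp14 at 0.76 ± 0.17 (0.00286), and with the heparan sulfate enzyme Ndst1 at -0.39 ± 0.09 (0.00242). Of 13 leukocyte adhesion genes 2 rose, the integrin chain Itgb7 at 0.995 ± 0.164 (adjusted p = 0.000156) and P-selectin, Selp, at 1.06 ± 0.36 (0.0408). Of 10 chemokine-like genes outside the symbol rule 1 rose and 1 fell, the receptor Gpr35 at 1.24 ± 0.22 (adjusted p = 0.000332) and Pitpnm3 at -0.41 ± 0.12 (0.0239). By diet and by ERTU in either genotype 0 genes of the 5 lists passed in edgeR, the smallest unadjusted p by diet being that of Tlr2 at -0.46 ± 0.11 (adjusted p = 0.606).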

How the data were processed

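RNA from left ventricles of 18 mice in 4 groups was sequenced after poly(A) selection as paired reads. Per the labels and the methods of the study, the authors aligned reads to mm10 with STAR 2.6.0c and made raw counts per Ensembl gene with featureCounts (Subread 1.6.2) from uniquely aligned pairs, and they also deposited variance-stabilized log2 values, used here as 1 alternative scale. The methods describe the counting as same strand, but the kit they name is given without saying whether it keeps strand, so genes that share exon bases with a gene on the opposite strand are given as uncertain. Columns are numbered across the series and give the group of a library, not its number within the group.

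Gene IDs were named and measured with GENCODE M21 (99.5% matched). The deposited counts were filtered by expression in the 4 groups (16270 genes kept, the genes left out holding 0.0906% of counts), scaled by TMM and tested with edgeR 4.0.16 (quasi-likelihood, Benjamini-Hochberg, threshold 0.05) in R 4.3.3. Genotype and diet came from an additive model, the pairwise comparisons and the interaction from 1 mean per group. DESeq2 1.42.0 and limma 3.58.1 were alternatives. Levels are CPM, or CPM per kb of merged exons. In simulated data for genotype, 200 genes were changed, drawn from the 16270 that had passed the filter in the real data. The filter was then applied again, which left 16067 genes. Of the changed genes left, 56.1% of 98 changed by log2 0.5 and 86.6% of 97 changed by log2 1 were called. Far more genes were called in the real data and many members have low counts, so these shares may not hold for the members. 1 gene that met the rule for members stayed in the fit over all genes and is not reported here. Members and lists were chosen with earlier results of these data known. Described in full were the members called, the 3 ligands and 3 receptors highest per kb, and the 2 with the smallest p for diet, ERTU in each genotype and the interaction. From each pathway list up to 3 genes called by genotype, with the smallest adjusted p, were named.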

Additional observations from a re-analysis of the deposited data

Results flagged for a closer look

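In 6 of 104 sets of values, each 1 gene in 1 group, a single library lay so far from the others that the gap exceeded Dixon's 95% critical value, where chance alone would give 5.2. Library 4 of WT CD was high for the eosinophil attractant Ccl24, with 4.98 CPM against 3.39 to 3.46 CPM in the other 3 (gap ratio 0.956), and for the neutrophil attractant Cxcl1, with 2.03 CPM against 0.691 to 0.798 CPM (0.92). Library 15 of WT ERTU was high for the monocyte attractant Ccl12, with 3.03 CPM against 0.112 to 0.439 CPM (0.888). Library 8 of Gαq CD stood apart for the atypical receptor Ackr4, at 15.5 CPM against 4.86 to 6.44 CPM (0.851), and it had the highest atrial marker sum of all libraries, 906.5 CPM. Library 16 of Gαq ERTU was high for Ccl27a, at 6.21 CPM against 3.83 to 4.04 CPM (0.908), and for the receptor Ccr1, at 4.14 CPM against 1.52 to 1.83 CPM (0.881). All 6 values lay on the high side.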

How the results depend on the processing

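Of the values for single genes, 143 were unchanged in the alternatives other than leaving out single libraries, 5 were no longer called, 3 became called and 3 changed sign. Unchanged meant the same direction and the same side of the threshold. The deposited variance-stabilized values have no adjusted p and were judged by direction alone. Levels per kb under another scaling were judged by whether they moved less than their SD over the libraries. The number of members called by genotype was 3, beside 17.8% of all genes, without the library highest in atrial markers in each group. This alternative was chosen after seeing the data. That setting also gave 2 members for Gαq on ERTU, beside 8.75% of all genes, and 4 adhesion genes. For Gαq on ERTU, DESeq2 called 2 members, beside 9.95% of the genes it gave an adjusted p, and both voom and a fit of only those groups called 3, beside 16.9% and 7.98% of all genes (8.17% in the reported fit). For Gαq on CD, DESeq2 called 3 members, beside 9.88% (8.1% in the reported fit). A fit of only those groups called 2, Ccl2 in place of Cx3cr1, beside 6.42%. For diet and for ERTU in Gαq, DESeq2 called 1 member, beside 0.0065% and 0.013% of the genes it gave an adjusted p. Voom called 5 inducers of chemokine transcription by genotype, beside 24% of all genes. Leaving out each library in turn gave 3 to 6 members by genotype (3 without library 17), beside 17% to 21.3% of all genes. For Gαq on CD it gave 1 to 4 (1 without library 1 or 7, 4 without library 6 or 11), beside 4.76% to 8.69%. For Gαq on ERTU it gave 1 to 2 (2 without library 6, 7, 9 or 11), beside 5.72% to 10.5%. The 4 other comparisons gave 0 members, beside 0% of all genes. By genotype these fits gave 1 to 3 adhesion genes, 5 to 8 signalling genes and 3 to 4 inducers. They also gave 3 to 4 genes for cleavage and surface binding and 2 to 3 outside the symbol rule. The genotype value of Ccl6 turned to -0.033 and that of Cxcr4 to -0.077 without the libraries highest in atrial markers, and Cxcr4 to -8.91e-05 on the deposited variance-stabilized scale. Across single libraries left out they ran from -0.12 to 0.17 for Ccl6 and from -0.056 to 0.128 for Cxcr4. The cause was not tested. Under a stricter filter (mean CPM of at least 1) members of low level were no longer tested. That left 4 called by genotype, beside 21% of the genes tested, Cxcr6 having dropped out. No paired analysis was possible because no replicate number shared between groups stands in the columns of the count table. Low counts limit Cxcr6, Ccl28, Ccl12, Ccl5, Ccl7 and Cxcl9, whose mean counts were 11.7 to 18.9.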
